A study of Mus musculus with 6 samples.

Results

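Primitive endoderm is the extraembryonic tissue that forms beside the epiblast in the blastocyst, and 10 of its marker genes were followed here in mouse embryonic stem (ES) cells without HP1 alpha and HP1 beta. The genes were chosen by name as markers of the tissue, with earlier results of these data known: the transcription factors Gata6, Gata4, Sox17, Sox7 and Foxa2, the receptor Pdgfra, the adaptor Dab2, and the basement membrane genes Lama1, Lamb1 and Sparc. All 10 were found by Entrez ID among 24467 gene IDs of the count table, and 9 of them were among the 14771 genes with enough reads to test. Foxa2 was not. RNA was sequenced from 6 libraries in 3 groups of 2. The control was 1 clone carrying floxed alleles of the HP1 alpha gene Cbx5 and the HP1 beta gene Cbx1 (F/F in the titles, with the genotype given as WT). The other groups were clone 1 and clone 2, in which both genes were knocked out (DKO). All groups were grown with LIF and knockout serum replacement, with GSK3 inhibited by CHIR99021 at 3 µM and MEK by PD184352 at 0.8 µM. How the alleles were deleted is not given in the sources used here. The control is a single clone, so genotype and clone cannot be told apart, and p-values measure the spread between libraries that may be technical repeats.

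In the inner cell mass, FGF4 from future epiblast cells signals through FGF receptors, MEK and ERK and raises GATA6 in neighbouring cells. GATA6 and NANOG repress each other, so a cell settles as primitive endoderm or as epiblast. GATA6 is followed by PDGFRA, SOX17, GATA4 and SOX7, and the committed layer then deposits a basement membrane rich in laminin and collagen IV. ES cells correspond to epiblast, and inhibitors of MEK and GSK3 hold them there, although a minority of cells in ES cultures can express primitive endoderm genes.

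The libraries held 24628872 to 34641560 counted reads. Expression is given in CPM, the reads of a gene per 1000000 reads of its library after TMM scaling. Cbx5 was at 811 CPM in the control and 198 CPM in the DKO libraries, and Cbx1 at 225 and 45.7 CPM, so the labels matched the targeted genes. Changes are log2 ratios from the edgeR quasi-likelihood F test, fitted over all tested genes, and a gene is said to have risen or fallen where its p-value, adjusted by Benjamini and Hochberg over all of them, was under 0.05. Two-sided 95% intervals come from the same fits.

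The markers stood at very different levels. Between genes only the CPM per kilobase of gene width can be compared, and in the control its median over all tested genes was 4.27. Sparc had 94.0 CPM per kb, above 96.3% of the tested genes. Lamb1 with 4.28 and Lama1 with 3.33 lay near the median of all genes. Dab2 with 0.403, Sox7 with 0.356, Pdgfra with 0.182, Gata6 with 0.147, Sox17 with 0.135 and Gata4 with 0.115 lay in the lowest 16.0% of genes, and Foxa2 had no read in the control. In this order Dab2 and Sox7 overlapped in the control libraries, as did Gata6 with Sox17 and Sox17 with Gata4, while the other neighbours were apart in the 2 control libraries. Over all 6 libraries Lamb1 and Lama1 overlapped too, with Lamb1 the lower of the pair in both clone 1 libraries and in clone 2 replicate 2, and so did Pdgfra and Gata6. The cultures held little RNA of the lineage regulators. In bulk RNA, fewer cells of a type and less RNA per cell cannot be told apart.

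**Figure D1:**
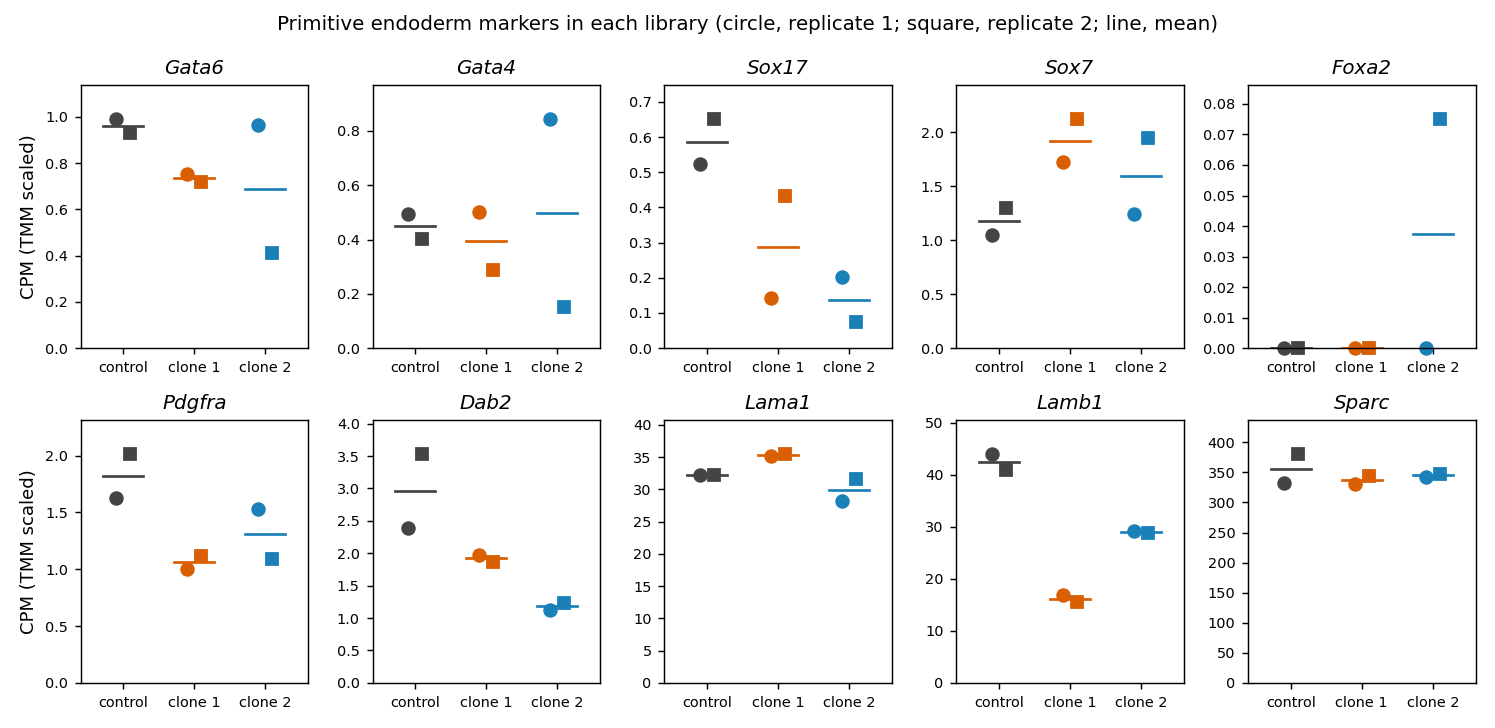
CPM of each marker gene (vertical axes, each starting at 0) in the control, clone 1 and clone 2 libraries, with circles for replicate 1, squares for replicate 2 and lines for group means. All 4 DKO libraries lay below both control libraries for Sox17, Pdgfra, Dab2 and Lamb1, and the groups overlapped for the other 6 genes. Of all tested genes 16.9% had all 4 DKO libraries below both controls.

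Against the control, 1 of the 9 tested markers fell in the DKO libraries and none rose, where 8.69% of all tested genes were called, 3.62% lower and 5.06% higher. With so few members this share does not stand apart from the background. Of the 9, 7 had a log2 change below 0, as did 49.9% of all tested genes. The median of the 9 was -0.43, the value of Gata6, beside a median of 0.00 over all tested genes. Whether the markers stood apart in this was not tested. All 4 DKO libraries lay below both controls for 4 of the tested markers, a pattern shown by 16.9% of all tested genes, and no marker had all 4 above. In clone 1 against control 1 marker fell, where 15.3% of all tested genes were called, 6.47% lower and 8.79% higher. In clone 2 against control 2 markers fell, with 15% of genes called, 7.08% lower and 7.89% higher. Between the clones 1 marker was higher in clone 2, with 6.3% of genes called, 3.77% lower and 2.53% higher. The clone comparisons share the control libraries, so they do not support each other.

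Among the 4 tested regulators no change passed the edgeR test, in DESeq2 none did either, and 1 of the 4 (Sox17) had an unadjusted p under 0.05. Gata6, the GATA factor that starts the lineage (Entrez 14465, GRCm38 chromosome 18, 11052510 to 11085636), had 0.990 and 0.929 CPM in the control, 0.754 and 0.718 in clone 1, and 0.963 and 0.412 in clone 2. Clone 2 replicate 1 lay between the controls and the other 3 DKO libraries lay below them. The log2 change in DKO was -0.43 (95% interval -1.25 to 0.39, adjusted p = 0.534), and that interval spans falls and rises. Gata4, the GATA factor of the committed layer (Entrez 14463, chromosome 14, 63198914 to 63271712), had 0.495 and 0.403 CPM in the control, 0.503 and 0.287 in clone 1, and 0.843 and 0.150 in clone 2. The clone 2 libraries were the highest and the lowest of the 6. Its log2 change of -0.03 had an interval from -1.32 to 1.27.

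Sox17, an HMG box factor needed for maturation of primitive endoderm (Entrez 20671, chromosome 1, 4490928 to 4497426), had 0.524 and 0.651 CPM in the control. It had 0.144 and 0.431 CPM in clone 1 and 0.201 and 0.0750 in clone 2. Every DKO library was thus below both controls, as for 16.9% of all tested genes. The DKO mean was 36.2% of the control mean, a log2 change of -1.44 (95% interval -2.69 to -0.19) that did not pass with adjusted p = 0.155 (unadjusted p = 0.0282). These levels rest on 18 and 21 reads in the control and on 2 to 12 reads in a DKO library. Its relative Sox7 (Entrez 20680, chromosome 14, 63943706 to 63950732) differed in sign. Sox7 had 1.05 and 1.30 CPM in the control, 1.72 and 2.12 in clone 1, and 1.24 and 1.95 in clone 2, with 3 of 4 DKO libraries above both controls. Its log2 change of 0.59 did not pass either (adjusted p = 0.261). Foxa2, a forkhead factor of endoderm (Entrez 15376, chromosome 2, 148042877 to 148046969), had no read in 5 libraries and 2 reads in clone 2 replicate 2. A count of 0 allows up to 3 reads, or 0.0873 to 0.120 CPM in these libraries, for counting error alone. Summed over the 5 regulators, a library held 71 to 106 reads, and the summed level was 3.06 and 3.28 CPM in the control and 2.66 to 3.56 CPM in the DKO libraries.

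The membrane receptor and the adaptor were below both controls in every DKO library, as were 16.9% of all tested genes. Neither was called over all DKO libraries. Pdgfra, the receptor for PDGF-A that marks early primitive endoderm and supports its survival (Entrez 18595, chromosome 5, 75151322 to 75198206), had 1.63 and 2.01 CPM in the control, 1.01 and 1.11 in clone 1, and 1.53 and 1.09 in clone 2. Its log2 change of -0.62 (95% interval -1.22 to -0.02) missed the threshold with adjusted p = 0.198. The gene of its ligand, Pdgfa, rose by 0.38 on the log2 scale (edgeR adjusted p = 0.0282). Control libraries had 47.8 ± 2.02 CPM and DKO libraries 62.3 ± 5.17 CPM (SD, n = 2 and 4). That call ended without either control library (adjusted p = 0.137 and 0.226) and without either clone 1 library. In each clone against the control Pdgfa was also the gene called, and between the clones none of the list was. None of the other 3 tested genes of the PDGF list of 5 passed.

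Dab2, an endocytic adaptor for clathrin and for receptors such as megalin (Entrez 13132, chromosome 15, 6299788 to 6440715), had 2.39 and 3.53 CPM in the control, 1.97 and 1.87 in clone 1, and 1.12 and 1.24 in clone 2. The control libraries were far apart, and the clones stood in steps below them. In clone 2 it fell to 39.9% of the control mean, a log2 change of -1.32 (SE 0.285, adjusted p = 0.0069). This call ended without control replicate 2 (adjusted p = 0.0791) and without clone 2 replicate 1 (adjusted p = 0.0567). In clone 1 the log2 change was -0.62 (adjusted p = 0.138), and over all DKO libraries it was -0.92 (adjusted p = 0.0756). The clones themselves differed by -0.70 (adjusted p = 0.205), which does not show a difference. The 4 tested genes within 1 Mb of Dab2 had log2 changes between -0.10 and 0.25 in clone 2, where Lifr rose (0.25, adjusted p = 0.0306; named after its values were seen). That call ended without any 1 of the control or clone 2 libraries (adjusted p from 0.0585 to 0.221). In clone 1 the log2 changes of the 4 ran from -0.25 to 0.22, and Rictor fell (-0.25, adjusted p = 0.0291). Rictor was named after its values were seen, and whether its call holds when a library is left out was not tested. Of all tested genes 15.3% were called in clone 1 and 15% in clone 2.

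Dab2 has 2 entries among RefSeq gene starts of GRCm38.p6, and the 249 bases before the first are shown because they hold the core of the site that GATA factors bind. They lie at chr15:6299539-6299787 on the plus strand, and capitals mark GATAA, searched on both strands (GATAA or TTATC) in the 250 bases before each start.
Dab2 first start: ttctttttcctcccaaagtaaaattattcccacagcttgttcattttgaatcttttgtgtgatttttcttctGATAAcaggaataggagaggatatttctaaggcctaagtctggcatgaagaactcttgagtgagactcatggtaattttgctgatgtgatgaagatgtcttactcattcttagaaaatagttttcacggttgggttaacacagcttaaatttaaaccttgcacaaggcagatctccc
The window of the first start holds 1 match, at position -178, and 2 CG dinucleotides. That of the second start, inside the gene at chr15:6386498-6386747, holds no match and 17 CG dinucleotides, and 150 of its bases lie in exons of GENCODE vM21. Of the 8 windows of markers 2 held the motif, this one and a window of Foxa2 (at position -182). The motif occurs in 22.6% of the 32851 windows of this length in the table, so a match is a description and not a site. The counts are per gene and do not tell from which start the reads came.

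**Figure D2:**
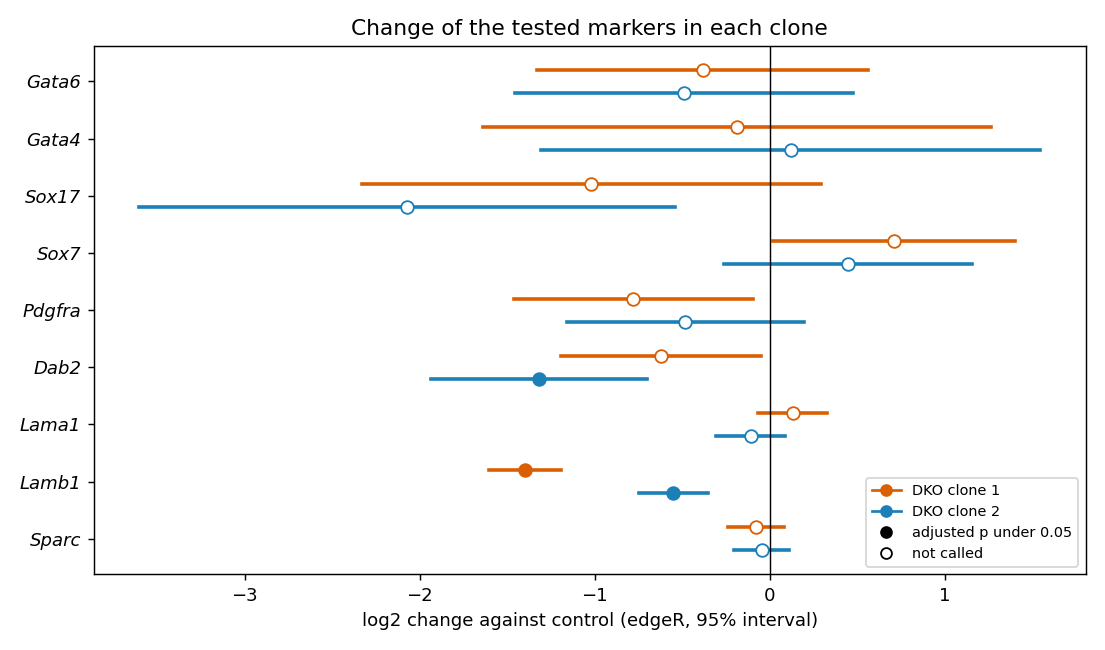
Log2 change against control (horizontal axis) of the 9 tested markers in clone 1 and clone 2, with 95% intervals from the 3-group edgeR fit and filled points where adjusted p was under 0.05. Lamb1 lay at -1.40 in clone 1 and -0.55 in clone 2 with narrow intervals, Dab2 was called in clone 2, and the intervals of Gata6 and Gata4 spanned 0 in both clones.

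The clearest change was that of Lamb1. It codes for the laminin beta 1 chain, which joins an alpha and a gamma chain to form the laminin trimers of early basement membranes (Entrez 16777, chromosome 12, 31265146 to 31329644). It had 44.0 and 41.0 CPM in the control, 16.8 and 15.4 in clone 1, and 29.3 and 28.7 in clone 2. The libraries of a group lay close together and the 3 groups were well apart. In clone 1 it fell to 38.0% of the control, with means of 42.5 ± 2.11 CPM in the control and 16.1 ± 0.956 CPM in clone 1 (SD, n = 2 each). The log2 change was -1.40 (SE 0.0953, edgeR adjusted p = 1.5e-06). In clone 2 it fell to 68.3%, or 29.0 ± 0.386 CPM (log2 change -0.55, SE 0.0919, adjusted p = 0.0011). The clones differed from each other by 0.85 on the log2 scale (SE 0.0967, adjusted p = 3.6e-04), with clone 1 the lower. These 3 calls held in all 14 alternatives that gave a value, with adjusted p up to 8.9e-05, 0.0201 and 0.0080.

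Over both clones together the log2 change of Lamb1 was -0.92 (SE 0.230, adjusted p = 0.0335). In this fit the distance between the clones counts as spread. The call ended without control replicate 1 (adjusted p = 0.241), without control replicate 2 (0.178), without clone 1 replicate 1 (0.0537) and in DESeq2 (0.0821), while the log2 change stayed between -1.06 and -0.77 in all 15 alternatives.

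The sequence before Lamb1 is shown because it is the marker whose change was called in both clones. The RefSeq promoter table (GRCm38.p6) has a window of 250 bases before a start that lies inside the gene interval given above, so that 147 of them are within the interval, and the 103 bases before the interval are printed (chr12:31265043-31265145, plus strand). The window holds no GATAA or TTATC, so no base is in capitals.
Lamb1: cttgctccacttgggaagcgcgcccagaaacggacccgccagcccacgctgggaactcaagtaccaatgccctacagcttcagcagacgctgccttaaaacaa
The 250-base window holds 14 CG dinucleotides, which 29.4% of all windows reach or exceed, and 6 of them are in the bases printed. Of the 10 markers 5 had entries in the table (Foxa2, Pdgfra, Sparc, Lamb1 and Dab2).

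Of 11 tested genes within 1 Mb of Lamb1, none was called in clone 1, where their log2 changes ran from -0.56 to 0.22 with a median of 0.05. Of all tested genes 15.3% were called in clone 1 and 15% in clone 2, so counts among 11 genes say little about the region. In clone 2, Dld rose (0.36, adjusted p = 0.0092) and Prkar2b fell (-0.77, adjusted p = 0.0394). These 2 genes were named after their values were seen. The call of Dld ended without control replicate 2 (0.0807) or clone 2 replicate 2 (0.128), and that of Prkar2b without any 1 of the control or clone 2 libraries (0.0886 to 0.160) and in DESeq2 (0.113). The median of the 521 tested genes of chromosome 12 was -0.01 in clone 1 and -0.03 in clone 2.

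Lama1 and Sparc were not called in any of the 4 comparisons. Lama1, the laminin alpha 1 chain (Entrez 16772, chromosome 17, 67697127 to 67822645), had 32.3 and 32.2 CPM in the control, 35.1 and 35.5 in clone 1, and 28.2 and 31.6 in clone 2. Clone 1 lay above the controls and clone 2 below them, and its log2 change over DKO was 0.02 (95% interval -0.22 to 0.25, adjusted p = 0.947). Sparc, a collagen-binding matrix glycoprotein abundant in parietal endoderm (Entrez 20692, chromosome 11, 55394159 to 55420080), had 332 and 381 CPM in the control, 331 and 345 in clone 1, and 343 and 347 in clone 2. All 4 DKO libraries lay at or near the range between the controls, and the interval of its log2 change of -0.06 ran from -0.21 to 0.09. This interval does not reach the -0.92 of Lamb1 in the same fit, and it measures only the spread between these libraries.

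The ratio of Lamb1 to Lama1, both per kilobase, was 1.33 and 1.24 in the control, 0.467 and 0.425 in clone 1, and 1.01 and 0.886 in clone 2. The groups did not overlap. Lamc1, the gamma 1 chain that completes these trimers, was far more abundant, with 78.1 and 78.2 CPM per kb in the control and 69.5 to 78.8 in the DKO libraries (log2 change -0.05, adjusted p = 0.728). The other beta chain gene of the list, Lamb2, had 5.17 and 4.47 CPM per kb in the control and 4.40 to 5.08 in the DKO libraries (log2 change -0.05, adjusted p = 0.801). Lamb1 was below Lamb2 in every library, with a ratio of 0.857 and 0.925 in the control and 0.341 to 0.637 in the DKO libraries. Lamc1 and Lamb2 are given as the partner and the alternative of Lamb1, a choice made after their values were seen.

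In the whole list of 16 basement membrane and collagen processing genes, all tested, 2 fell in DKO and the other 14 were not called. Of all tested genes 3.62% were called lower in DKO and 5.06% higher. The list's median was -0.05. Col4a1, a chain of collagen IV, fell by 0.54 on the log2 scale (edgeR adjusted p = 0.0138), with 19.0 ± 1.33 CPM (SD, n = 2) in the control and 13.1 ± 0.903 CPM (SD, n = 4) in DKO. Lama5, the laminin alpha 5 chain, fell from 129 ± 13.0 to 103 ± 5.56 CPM (log2 change -0.33, adjusted p = 0.0276). Both calls ended without control replicate 1 (adjusted p = 0.182 for Col4a1 and 0.297 for Lama5) and without control replicate 2 (0.0738 and 0.0582). That of Lama5 also ended without clone 2 replicate 1 or replicate 2. In clone 1 the list had 4 genes lower and 1 higher, beside 6.47% and 8.79% of all tested genes. Lama5, Col4a1, P4hb (-0.35, adjusted p = 0.0056) and Crtap (-0.32, adjusted p = 0.0326) were lower. Hspg2 was higher (0.33, adjusted p = 0.0047). In clone 2 the list had 3 lower and 2 higher, beside 7.08% and 7.89% of all tested genes. Lama5, Col4a1 and Plod2 (-0.37, adjusted p = 0.0057) were lower. Nid1 (0.24, adjusted p = 0.0435) and Nid2 (0.33, adjusted p = 0.0039) were higher. P4hb, Crtap, Plod2, Hspg2, Nid1 and Nid2 were named after their values were seen. Whether the calls of these genes hold when a library is left out was not tested.

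**Figure D3:**
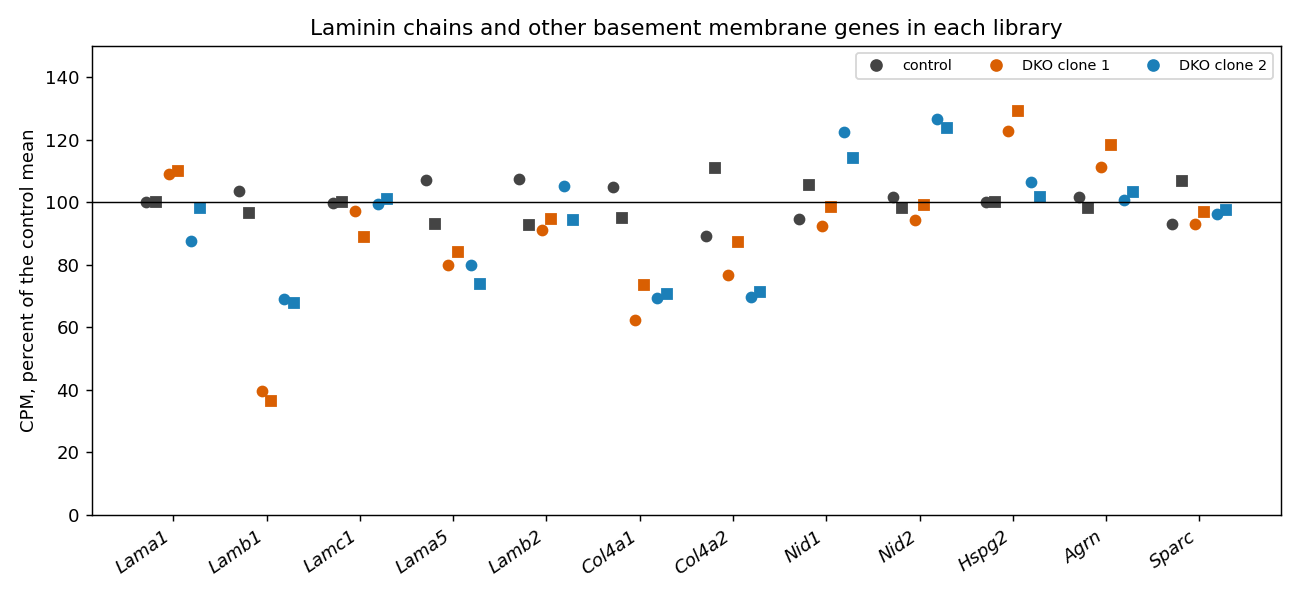
CPM of laminin chains and other basement membrane genes in each library as a percent of the control mean (vertical axis from 0; circles, replicate 1; squares, replicate 2). Lamb1 is lowest in clone 1 and intermediate in clone 2, and Col4a1 and Lama5 are lower in both clones. Nid1 and Nid2 are higher in clone 2 (means of 118% and 125%) and Hspg2 in clone 1 (126%). Lama1, Lamc1, Lamb2 and Sparc scatter around 100.

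Genes with a pattern over the 6 libraries like that of Lamb1 were searched among 11496 genes at 2 CPM or more outside the lists. The closest were Psd3, Cyct and Slc43a3, with a root mean square difference in centred log2 CPM of 0.0458, 0.0553 and 0.0606. Psd3 had 3.57, 1.33 and 2.39 CPM in control, clone 1 and clone 2. None of the 3 lies on chromosome 12. For Dab2 the closest were Fgfbp1, Tcf15 and Ina (0.0825, 0.132 and 0.136), and Fgfbp1 had 25.0, 17.3 and 10.6 CPM in the 3 groups. No test was made of these likenesses, which were picked from many genes over 6 libraries.

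Other genes of the lineage were counted in lists. Beside the counts of every list, 3.62% of all tested genes were called lower in DKO and 5.06% higher. The shares lower and higher were 6.47% and 8.79% in clone 1 and 7.08% and 7.89% in clone 2. Between the clones they were 3.77% and 2.53%. Whether a list stood apart from these shares was not tested. Of 9 other transcription factors of primitive endoderm 5 were tested and none passed in DKO, in edgeR or DESeq2, and none had an unadjusted p under 0.05. In clone 2 Klf5 fell (-0.33, adjusted p = 0.0472), a call that ended without control replicate 2 (0.368) or clone 2 replicate 2 (0.385) and with chromosomes centred (0.267). The 2 with the highest level per length, Sall4 and Klf5, which ES cells also use, had 371 and 226 CPM in the control and 372 and 194 CPM in DKO. Foxa1, a forkhead factor below the filter that was named after its values were seen, had 12 and 12 reads in the control, none in clone 1, and 4 and 6 reads in clone 2. Of 20 visceral endoderm genes 10 were tested and 1 fell, with a median log2 change of -0.15. Afp, Ttr, Cer1 and Fgb had no read in any library. The gene that fell was Lefty1, a Nodal inhibitor that ES cells and anterior visceral endoderm both express, with 10.6 ± 1.57 CPM in the control and 3.99 ± 1.58 CPM in DKO (SD, n = 2 and 4). Its edgeR log2 change was -1.41 with adjusted p = 0.0112, which went to 0.157 when control replicate 1 was left out and to 0.0753 for replicate 2. In clone 1 the list had 1 gene higher and 1 lower, in clone 2 it had 3 lower, and between the clones 1 was higher in clone 2.

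Of 14 parietal endoderm genes 11 were tested, 2 rose and 1 fell (median -0.15). Ctsl, the lysosomal protease cathepsin L, rose by 0.64 on the log2 scale (edgeR adjusted p = 0.0014), with 170 ± 5.65 CPM in the control and 265 ± 21.4 CPM in DKO (SD, n = 2 and 4). This call held when any 1 of the 6 libraries was left out. Tfpi, an inhibitor of coagulation, rose from 55.8 to 71.0 CPM (adjusted p = 0.0307), and Krt8, a keratin of simple epithelia, fell from 6.04 to 3.11 CPM (adjusted p = 0.0327). Both of these calls ended without either control library (Tfpi 0.109 and 0.254, Krt8 0.0708 and 0.361). In clone 1 the list had 3 genes higher and 2 lower, in clone 2 it had 2 higher and 2 lower, and between the clones 1 was lower in clone 2. Krt8 also lost its call in DKO without clone 1 replicate 1, and Tfpi without clone 1 replicate 2 or clone 2 replicate 1.

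Of 21 genes of FGF and ERK signalling, the route that starts the lineage and that PD184352 blocks at MEK, 3 rose in DKO and 18 did not pass (median -0.06). The adaptor gene Shc1 rose from 49.4 to 65.0 CPM (adjusted p = 0.0128), the kinase gene Map2k2 from 47.9 to 60.8 CPM (adjusted p = 0.0398), and the feedback inhibitor gene Spry4 from 170 to 240.3 CPM (adjusted p = 0.0256). Without control replicate 1 none of the 21 was called (adjusted p = 0.0708, 0.138 and 0.274 for these genes), and without control replicate 2 only Spry4 was. Map2k2 also lost its call without clone 1 replicate 1, clone 2 replicate 1 or clone 2 replicate 2. After centring by chromosome 1 of the 21 was called. Shc1 then went to 0.22 (adjusted p = 0.118) and Spry4 to 0.43 (adjusted p = 0.0548). Shc1 lies on chromosome 3, whose median log2 change in DKO was 0.18. In clone 1 the same count of 3 genes was higher and none lower. In clone 2, 3 were higher and 3 lower, and between the clones 2 were lower in clone 2. The 3 that fell in clone 2, named after their values were seen, code for feedback inhibitors of the pathway: Dusp6 (-0.50, adjusted p = 0.0022), Spry2 (-0.40, adjusted p = 0.0091) and Spred2 (-0.41, adjusted p = 0.0157). Dusp6 kept its call when any 1 library was left out. The calls of Spry2 and Spred2 ended without control replicate 2 (0.0780 and 0.103) or clone 2 replicate 2 (0.135 and 0.168). That of Spry2 also ended with chromosomes centred (-0.27, adjusted p = 0.0856), and its chromosome 14 had a median of -0.14 in clone 2. Dusp6 and Spry2 were also lower in clone 2 than in clone 1 (-0.47, adjusted p = 0.0101, and -0.53, adjusted p = 0.0042). The first of these calls ended without clone 1 replicate 2 (0.0838) or clone 2 replicate 1 (0.109), and the second without clone 2 replicate 2 (0.0577).

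**Figure D4:**
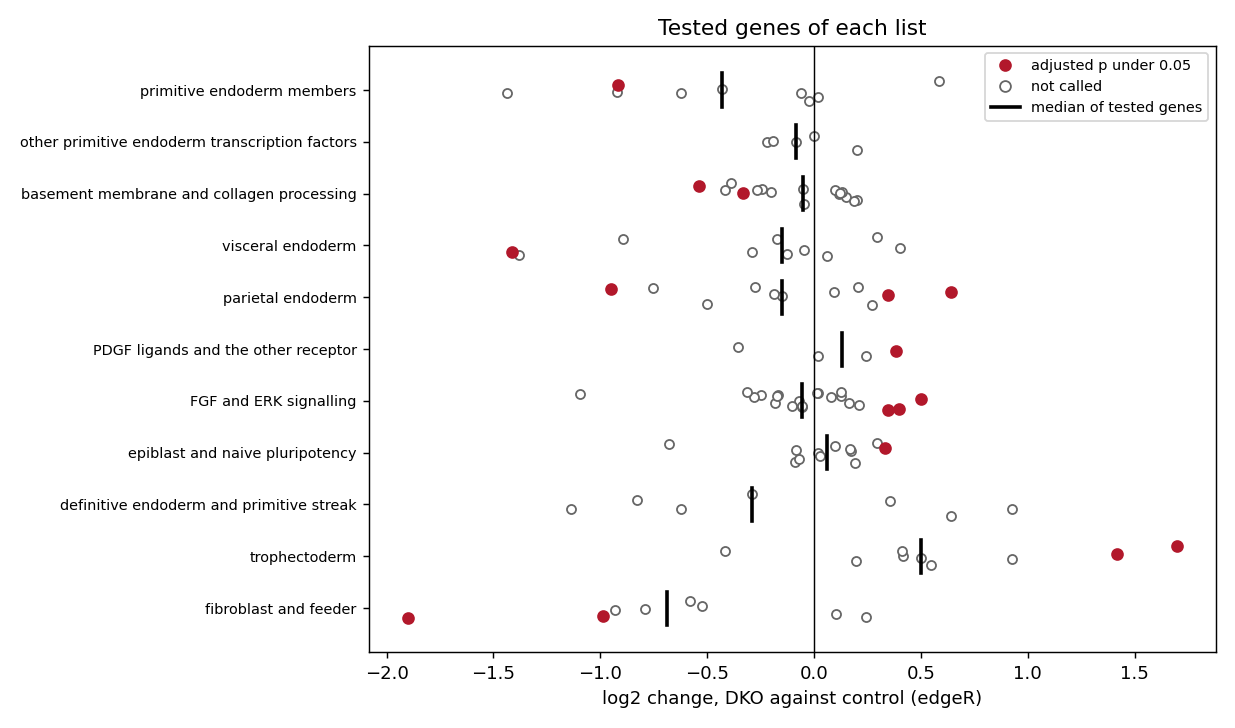
Log2 change in DKO against control (horizontal axis) of every tested gene in the 11 gene lists, with filled points where adjusted p was under 0.05 and black bars for list medians. The marker genes have a median of -0.43 and spread from -1.44 to 0.59, fibroblast genes have the lowest median (-0.69), and trophectoderm genes the highest (0.50).

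Genes of other cell types were read in the same libraries. Epiblast and naive pluripotency genes were abundant, with 3709 to 4219 CPM summed over 12 genes in a library. Of these 1 was called higher in DKO, Nanog, the factor that opposes Gata6, with 498 CPM in the control and 626 CPM in DKO (log2 change 0.33, adjusted p = 0.0281). Nanog lies on chromosome 6, whose 709 tested genes had a median log2 change of 0.48, above that of Nanog. Its call ended without control replicate 1 or 2 (adjusted p = 0.191 and 0.190), and with chromosomes centred its log2 change was -0.14. The list had 2 genes higher and 1 lower in clone 1, 1 higher in clone 2, and 1 higher in clone 2 than in clone 1. Of 12 definitive endoderm and primitive streak genes 7 were tested and none passed in edgeR for DKO (4 had an unadjusted p under 0.05), while 1 was called higher in DESeq2, without a filter on low counts, and without clone 1 replicate 1 or 2. In clone 1 Eomes, a T-box factor also of trophoblast, was higher (0.48, adjusted p = 0.0318), a call that ended without control replicate 1 (0.201) or either clone 1 library (0.135 and 0.0640). In clone 2 Eomes rose by 1.27 on the log2 scale (adjusted p = 4.1e-05), in all alternatives run. It was higher in clone 2 than in clone 1 (0.79, adjusted p = 0.0040, and 0.0563 without clone 2 replicate 1). Cdx1 also rose in clone 2 (0.47, adjusted p = 0.0165) and Hhex fell (-0.52, adjusted p = 0.0395). Cdx1 lost this call without control replicate 1 (0.134) or either clone 2 library (0.0548 and 0.139), and Hhex without any 1 of the control or clone 2 libraries (0.0656 to 0.183) and in DESeq2 (0.0905). Eomes was named after its values were seen. The 2 with the highest level per length, Cdx1 and Hhex, had 14.1 and 7.14 CPM in the control and 18.0 and 5.83 CPM in DKO. Cer1, Mesp1 and Prss22 had no read. Hhex and Cer1 are also on the visceral endoderm list, and Hhex is 1 of the 3 genes of that list that were lower in clone 2. Foxa1 is also among the other primitive endoderm factors counted above. Of 12 trophectoderm genes, Eomes among them, 9 were tested and 2 rose in DKO, Gata3 from 1.01 to 2.70 CPM (adjusted p = 0.0290) and Tfap2a from 1.22 to 3.96 CPM (adjusted p = 0.0028). Without control replicate 1 they were at 0.262 and 0.0644, and without control replicate 2 at 0.102 and 0.0433. Gata3 also lost its call without clone 1 replicate 1 or 2. In each clone 4 of the list were higher than in the control and none lower, and between the clones 1 was higher and 1 lower. Of all tested genes 8.79% were called higher in clone 1 and 7.89% in clone 2. The summed level of the 12 was 55.7 to 65.2 CPM in the control and 78.4 to 86.4 CPM in DKO. Elf5, which defines the trophoblast lineage, had no read in the control and 1 read in each clone 2 library.

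Fibroblast and feeder genes, some of which are expressed beside Sparc, Lamb1 and Pdgfra in mesenchyme, were lower in sum in both clones. Their summed level over 16 genes was 44.0 to 48.6 CPM in the control, 28.8 to 30.1 in clone 1 and 22.9 to 24.8 in clone 2. The sum was lower in clone 2 than in clone 1, while most tested genes of the list went the other way. Between the clones Tagln (14.5 and 7.51 CPM in clone 1 and clone 2) and Acta2 (2.24 and 0.948 CPM) were lower in clone 2 (-0.95, adjusted p = 0.0015, and -1.24, adjusted p = 0.0191). Of the 8 tested genes 5 were on the higher side in clone 2, with a list median of 0.19. The call of Acta2 between the clones ended without any 1 of the 4 DKO libraries (0.0700 to 0.125). Tagln was named after its values were seen. Of 8 tested genes 2 fell in DKO: Acta2, smooth muscle actin, from 6.02 to 1.60 CPM (adjusted p = 0.0063) and Twist1, a mesenchymal factor, from 3.53 to 1.77 CPM (adjusted p = 0.0216). Over DKO, 6 of the 8 had a log2 change below 0 and 2 above it. In clone 1, 5 of the list were lower, and in clone 2, 3 were. Of all tested genes 6.47% were called lower in clone 1 and 7.08% in clone 2. Both DKO calls ended without control replicate 1 (0.0571 and 0.0685) and without control replicate 2 (0.109 and 0.253). Of the collagen and surface genes of fibroblasts, Col1a1 had 31 to 53 reads and Thy1 5 to 44 reads in a library, while Col1a2, Col3a1, Lum, Dcn, Postn, Prrx1, S100a4 and Fap had 0 to 9. None of the 16 was at 0 in all 6 libraries. The part of these genes in the lower levels of Lamb1, Dab2 and Pdgfra was not tested.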

How the data were processed

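RNA from 6 mouse ES cell libraries had been made into ScriptSeq v2 libraries, per the labels' protocols, and aligned with STAR 2.5.0a to mm10 (GRCm38), per the submitters' processing notes. The authors deposited unnormalized counts of reads for each Entrez ID beside the width of the gene. No counting tool, annotation or strand setting was found in the labels, so reads of overlapping antisense genes may be included. Of 24467 IDs 24437 were matched to symbols and positions in RefSeq for GRCm38.p6. No per-sample column was left unused.

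The tests used edgeR 4.0.16 under R 4.3.3 (filterByExpr, TMM, glmQLFit and glmQLFTest), with genotype alone for DKO against control (4 residual degrees of freedom) and 3 groups for the other comparisons (3 residual degrees of freedom). Alternatives were RLE and library size scaling, other filters, DESeq2 1.42.0, limma-voom (limma 3.58.1), a replicate block, centring of each chromosome, counts summed per clone and leaving out each library, with the same tested genes. SE values come from the F statistic. The pattern search used log2(CPM + 0.1). Replicates differed by more than sampling noise (chi-square per gene 11.8 to 44.4).

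The members and lists were chosen with earlier results of these data known. Named were all members, up to 4 called genes per list or otherwise the 2 with the highest level per length, 3 genes of like pattern for each of 2 members, and Cbx5 and Cbx1. Genes outside this rule are marked as such, except genes named only for their read counts. Those are Afp, Ttr, Cer1, Fgb, Mesp1, Prss22, Elf5 and the fibroblast genes given in reads.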

Additional observations from a re-analysis of the deposited data

Results flagged for a closer look

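The clones differed in Lamb1: clone 2 was higher than clone 1 by 0.85 on the log2 scale (0.846335 before rounding, adjusted p = 3.6e-04 in the 3-group edgeR fit), with both libraries of clone 2 above both of clone 1. Foxa2 had 0.0750 CPM, from 2 reads, in clone 2 replicate 2 and no read in the other 3 DKO libraries. With 3 values at 0 the gap between libraries is the whole range whatever the count, and the value lies under the 0.0873 to 0.120 CPM that a count of 0 allows, so this library is not shown to stand apart. No other marker was picked out by Dixon's rule among the 4 DKO libraries.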

How the results depend on the processing

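Of 501 comparisons of a tested marker with its reported value, 472 kept direction and side of the threshold, 20 changed sign, 8 lost a call and 1 gained it (Dab2 in DKO without a filter on low counts, adjusted p = 0.0451). Markers called in DKO numbered 1, but 2 without a filter on low counts and 0 in DESeq2, with a replicate block or with counts summed per clone, and from 0 to 1 when each library was left out. In clone 2 they numbered 2, and from 1 to 2 when each library was left out. Called genes in DKO against control numbered 1283, but 778 with chromosomes centred (335 higher and 443 lower, against 748 and 535), 2 with counts summed per clone, 928 with the replicate block, and from 243 to 1173 when each library was left out. They ranged from 1284 to 2063 in clone 1, from 1109 to 2298 in clone 2 and from 253 to 919 between the clones when each library was left out. Between the clones 930 were called, and 1453 without a filter.

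All sign changes were of uncalled markers, except that of Nanog, which went to -0.14 with chromosomes centred. With chromosomes centred Gata4 went from -0.03 to 0.063 in DKO, and Sparc from 0.03 to -0.0054 between the clones. In limma-voom Gata4 went to -0.31 in clone 2 and -0.092 between the clones. The other sign changes came when a library was left out. Over these, Gata4 ran from -0.51 to 0.26 in DKO, from -0.64 to 0.16 in clone 1, from -1.56 to 0.90 in clone 2 and from -1.37 to 1.09 between the clones. Lama1 ran from -0.026 to 0.080 in DKO. Sparc ran from -0.15 to 0.043 in DKO, from -0.17 to 0.027 in clone 1 and from -0.14 to 0.058 in clone 2. Gata6 ran from -1.21 to 0.0073 in clone 2 and from -0.83 to 0.39 between the clones, and Sox7 from -0.62 to 0.021 between the clones. The cause was not tested. When the libraries of a clone were added up (1 residual degree of freedom), the DKO calls of Lamb1 and of every named list gene ended.

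The replicate numbers did not pair the libraries. Differences between replicate 1 and 2 correlated across genes at 0.03 for control and clone 1, -0.08 for control and clone 2, and 0.03 for the clones. With the replicate block the DKO calls of Lamb1 (adjusted p = 0.0654), Pdgfa (0.0586), Tfpi (0.0641), Map2k2 (0.0795) and Gata3 (0.0544) ended, as did that of Prkar2b in clone 2 (0.0528). The rank of markers by level was the same in CPM alone, except that Sox7 and Pdgfra changed places. Depth limits the regulators, with 2 to 59 reads of Gata6, Gata4, Sox17 or Sox7 in a library.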
